A study of Homo sapiens with 2 samples.

Results

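Structural and nuclear noncoding RNAs were followed in ribosome footprint libraries from the established human cell line HEK293, which derives from embryonic kidney. The set holds 10 genes of the 57820 Ensembl IDs in the deposited count table: SNORD93, SNORD15B, RPPH1, RMRP, RN7SK, RN7SL1, RN7SL2, TERC, MALAT1 and NEAT1. The genes were chosen by ID with the counts of these same libraries in both replicates known, so their levels and ratios below are a description and carry no test. In all, 7 of the 10 were above 0 in both libraries and 3 were listed at 0 in both, while 12262 of the 57820 IDs were above 0 in both and 41355 were at 0 in both.

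Both libraries of the study are vehicle controls, made from cells that received DMSO for 12 h. Replicate 2 belongs to batch 2, and batch 1 holds replicate 1. Lysates made with cycloheximide, an inhibitor that holds ribosomes in place, were digested with RNase I and passed over a size-exclusion column, and ribosomal RNA was not depleted. Counts are of fragments of 27 to 29 nt per gene, and replicate 2 held 611266 counts and replicate 1 held 865838. Each library is its own batch, so batch and replicate cannot be told apart, and nothing in the labels says that the libraries came from separate cultures beyond that batch number.

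Ribosome profiling reads the stretch of mRNA that a ribosome shields from nuclease. Proteins that wrap a noncoding RNA, and tight folding of that RNA, can also shield fragments, and particles large enough to pass with monosomes can enter such libraries. None of the 10 genes is known chiefly as a template for protein: they guide the modification of ribosomal RNA, cut tRNA and rRNA precursors, restrain transcription elongation, target nascent proteins to the endoplasmic reticulum, template telomere repeats or organise nuclear bodies. A gene-level count does not say whether a fragment came from a ribosome or from another particle, and this was not tested.

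Together the 10 genes took 1.40% of all counts in replicate 2 (95% exact Clopper-Pearson interval 1.37 to 1.43) and 0.903% in replicate 1 (0.883 to 0.923), a mean of 1.15% ± 0.350 (SD, n = 2). These intervals, like all those below, cover counting error only and treat amplified fragments as independent. SNORD93 alone supplied 75.2% of the set's counts in replicate 2 (74.3 to 76.1) and 81.0% in replicate 1 (80.1 to 81.9). RPPH1 and RMRP together supplied 19.6% in replicate 2 and 15.7% in replicate 1, and MALAT1 with NEAT1 supplied 2.02% in replicate 2 and 2.16% in replicate 1. Without SNORD93 the set took 0.347% of all counts in replicate 2 and 0.172% in replicate 1, a ratio of 2.02 against 1.55 for the whole set. All 14 nonzero values of the set were whole numbers (within 0.001). Over all IDs, 13.9% of nonzero values in replicate 2 and 15.2% in replicate 1 were not. With so few values in the set, no trait of the set is read from this.

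**Figure D1:**
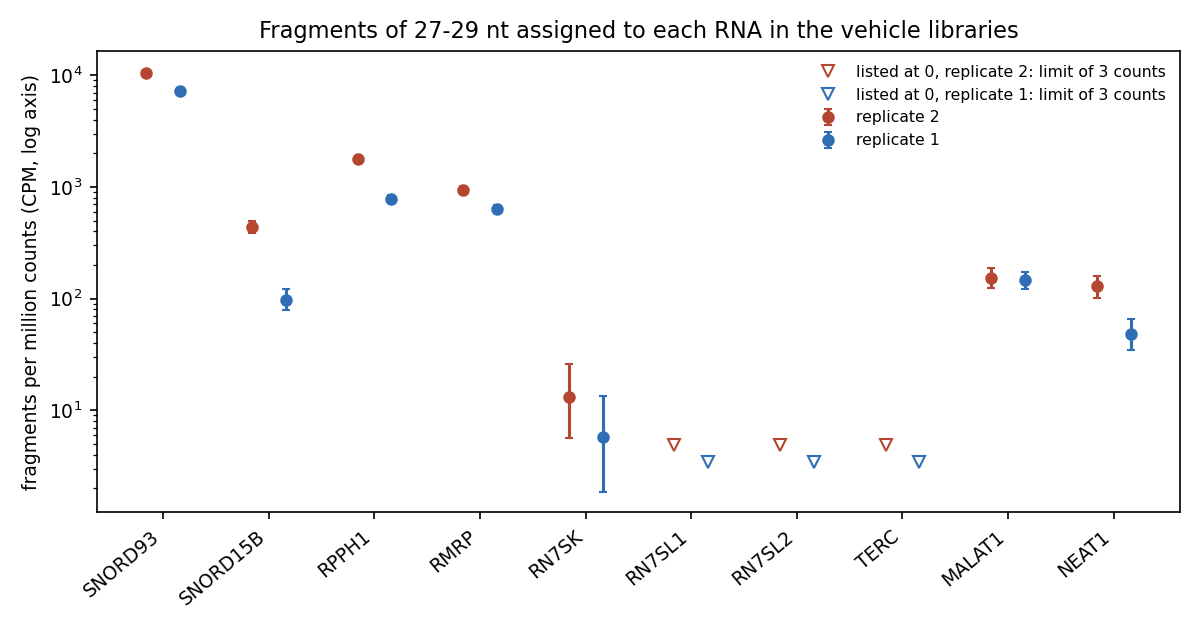
Fragments in CPM (log axis) for the 10 RNAs in replicate 2 (red) and replicate 1 (blue), with 95% exact intervals for counting error; open triangles mark the one-sided limit of 3 counts, not the exact interval, for RNAs listed at 0. SNORD93 lies near 10518 CPM in replicate 2 and 7315 CPM in replicate 1, and RN7SL1, RN7SL2 and TERC have no counts.

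The C/D box snoRNAs came first in abundance through SNORD93. C/D box snoRNAs pair with ribosomal RNA and direct the methylation of its ribose, in a particle with fibrillarin. SNORD93 (ENSG00000221740.1) had 6429 counts in replicate 2 and 6334 in replicate 1, which is 10518 CPM (counts per 1000000 counts of the library) and 7315 CPM. It ranked 3 of all IDs by counts in replicate 2, 4 in replicate 1 and 3 on the mean, behind only the pair of IDs that led the table, ENSG00000210082.2 and ENSG00000211459.2, on that mean. Its share of the library was 1.05% in replicate 2 (1.03 to 1.08) and 0.732% in replicate 1 (0.714 to 0.750).

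SNORD15B (ENSG00000207445.1), another C/D box snoRNA, had 267 counts in replicate 2 and 85 in replicate 1. That is 437 CPM in replicate 2 (386 to 492) and 98.2 CPM in replicate 1 (78.4 to 121), intervals that lie far apart. By counts it ranked 274 in replicate 2 and 1641 in replicate 1. Of the 7 RNAs with counts it had the widest gap between the libraries, as a ratio. The counting intervals of the NEAT1 and RN7SK ratios, given below, overlapped that of SNORD15B.

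RPPH1 and RMRP are the RNA subunits of related enzymes that share most of their proteins: RNase P, which removes the leader of tRNA precursors, and RNase MRP, which cuts precursor ribosomal RNA. RPPH1 (ENSG00000259001.2) had 1096 counts in replicate 2 and 680 in replicate 1, or 1793 CPM and 785 CPM. RMRP (ENSG00000269900.2) had 576 counts in replicate 2 and 547 in replicate 1, or 942 CPM and 632 CPM. Both therefore had more counts in the shallower library, as did SNORD93, SNORD15B, NEAT1 and RN7SK. On the mean CPM, RPPH1 ranked 67 and RMRP 137 among all IDs.

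The remaining short RNAs were sparse or listed at 0. RN7SK (ENSG00000202198.1), the 7SK RNA that holds the elongation factor P-TEFb inactive, had 8 counts in replicate 2 and 5 in replicate 1, or 13.1 CPM (5.65 to 25.8) and 5.77 CPM (1.88 to 13.5). These intervals overlap, so no difference was detectable at this depth. RN7SL1 (ENSG00000258486.2) and RN7SL2 (ENSG00000265150.1), near-identical genes for the RNA of the signal recognition particle, were listed at 0 in both libraries. The signal recognition particle binds ribosomes that translate secreted and membrane proteins. TERC (ENSG00000270141.2), the template RNA of telomerase, was also listed at 0 in both. With 0 counted, up to 3 counts remain possible, a one-sided limit of 4.91 CPM in replicate 2 and 3.46 CPM in replicate 1. The upper bound of the two-sided 95% exact interval used for the other RNAs is 6.03 CPM in replicate 2 and 4.26 CPM in replicate 1. How fragments matching several near-identical genes were assigned is not given in the sources used here, so a 0 for RN7SL1 and RN7SL2 is a value of the table and not a measure that such fragments were absent.

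MALAT1 and NEAT1 are long nuclear RNAs: MALAT1 collects in nuclear speckles, and NEAT1 builds paraspeckles. MALAT1 (ENSG00000251562.3) had 94 counts in replicate 2 and 127 in replicate 1, or 154 CPM (124 to 188) and 147 CPM (122 to 175). MALAT1 was the steadiest of the set, with a mean of 150 ± 5.02 CPM (SD, n = 2). NEAT1 (ENSG00000245532.4) had 79 counts in replicate 2 and 42 in replicate 1, or 129 CPM (102 to 161) and 48.5 CPM (35.0 to 65.6). The NEAT1 intervals do not overlap, and the MALAT1 intervals do.

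Ordered by mean CPM, which is not divided by length and so favours long RNAs, the set ran SNORD93 (8916 ± 2264), RPPH1 (1289 ± 713), RMRP (787 ± 220), SNORD15B (267 ± 239), MALAT1 (150 ± 5.02), NEAT1 (88.9 ± 57.1) and RN7SK (9.43 ± 5.17; SD, n = 2 for each). The range of RPPH1 over the 2 libraries overlapped that of RMRP, although RPPH1 was higher within each library. The range of SNORD15B spanned that of MALAT1, with SNORD15B above MALAT1 in replicate 2 and below it in replicate 1. The other neighbours in this order had ranges over the 2 libraries that did not overlap. Within replicate 2, however, the counting intervals of MALAT1 (124 to 188 CPM) and NEAT1 (102 to 161 CPM) overlapped. Transcript lengths of the files' annotation were not used here, so these are orders of fragment counts and not of density along each RNA.

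The next comparison was between the 2 vehicle libraries after TMM scaling, which sets the libraries level on the bulk of IDs. Each ratio divides the scaled count of replicate 2 by that of replicate 1. Its interval is the exact binomial one given the summed count, for counting error only, and the ratio compares these libraries and not conditions. Of the 10 RNAs, 6 had at least 100 summed counts and could be set beside the 2241 IDs of the table that did. A ratio above 1 was found for 6 of these 6 (background 43.2% of the 2241 IDs). The 95% interval lay above 1 for 5 of the 6 (background 15.6%), all but MALAT1, and wholly beyond 2-fold for 2 of the 6, SNORD15B and RPPH1 (background 0.491%). None lay beyond 2-fold towards replicate 1 (background 0.312%). The genes were listed with these ratios known, so nothing is read from their counts against the background. The same holds for the places of single members among these IDs given below, which only describe where each ratio lies. The median log2 ratio of the 6 was 0.99, beside -0.07 for all 2241 IDs.

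SNORD15B had a log2 ratio of 2.26 (1.91 to 2.63), or 4.80-fold higher in replicate 2. Only 2 of the 2241 IDs, itself included, had a ratio at least as high. NEAT1 had a log2 ratio of 1.52 (0.97 to 2.10), and its lower bound fell just short of the 2-fold line. RPPH1 had a log2 ratio of 1.30 (1.16 to 1.44), or 2.46-fold, and 16 of the 2241 IDs were at least as high. Among the 176 IDs with at least 1000 summed counts, where counting error is small, 2 were at least as high as RPPH1, itself included.

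RMRP and SNORD93 differed less between the libraries, with log2 ratios of 0.69 (0.51 to 0.86) and 0.63 (0.58 to 0.68). Both lay above 0 by more than counting error and within 2-fold. Of the 176 most counted IDs, 5 were at least as high as RMRP and 9 at least as high as SNORD93. The 5th and 95th percentiles of log2 ratios among those 176 were -0.65 and 0.60, so SNORD93 and RMRP lay just above the upper of these. MALAT1 had a log2 ratio of 0.18 (-0.22 to 0.57), a difference within counting error, and 29.0% of the 2241 IDs were at least as high. RN7SK had a log2 ratio of 1.29, with an interval from -0.50 to 3.25 that does not settle its direction.

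**Figure D2:**
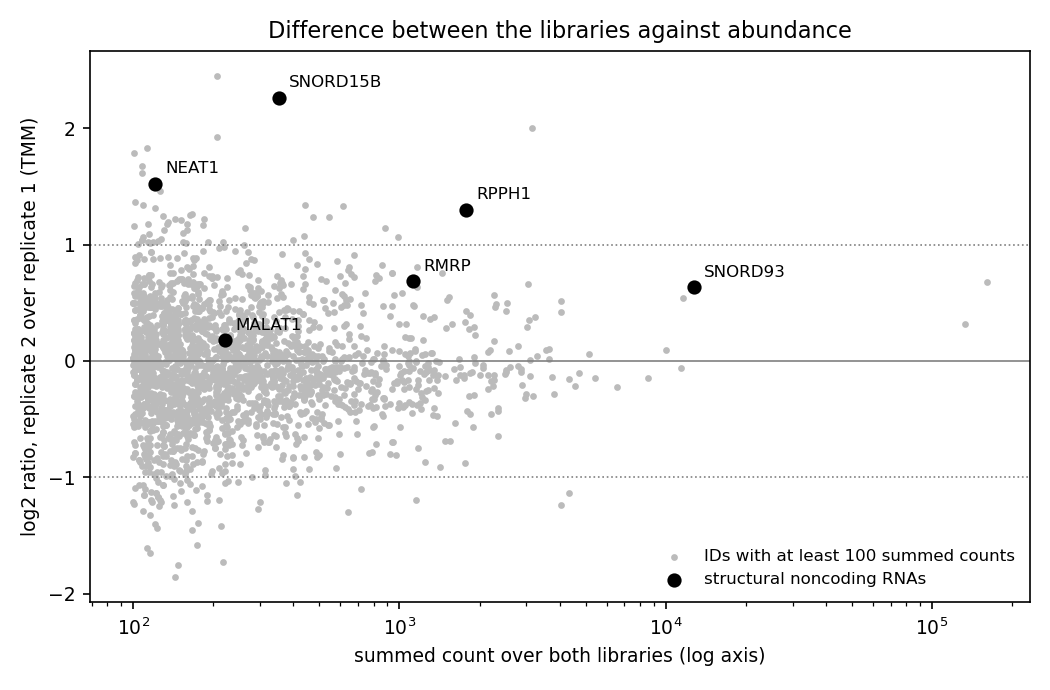
Log2 ratio of replicate 2 over replicate 1 after TMM scaling against the summed count (log axis) for the 2241 IDs with at least 100 summed counts (grey) and the 6 noncoding RNAs among them (black); dotted lines mark 2-fold. All 6 lie above 0, with SNORD15B at 2.26 and MALAT1 at 0.18.

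The 2 IDs with the most counts in the table took 23.2% of replicate 2 and 17.6% of replicate 1. The share of the 10 genes was likewise larger in replicate 2. Whether these 2 IDs are coding or noncoding was not looked up, so the share of the 10 genes is not that of all noncoding RNA. The log2 ratios of the 2 IDs were 0.68 for ENSG00000210082.2 and 0.31 for ENSG00000211459.2, beside 0.63 for SNORD93. With that pair of IDs left out of the TMM scaling, the median log2 ratio of the 2241 IDs was -0.07, as with all IDs. With library-size scaling the median was -0.18, and the member ratios were lower by the same shift: 2.15 for SNORD15B, 1.41 for NEAT1, 1.19 for RPPH1, 0.58 for RMRP, 0.52 for SNORD93 and 0.07 for MALAT1. By library size, the ratio was above 1 for 6 of the 6 RNAs (background 33.5%), and the interval lay above 1 for 5 of them (background 12%). It lay beyond 2-fold for SNORD15B and RPPH1 (background 0.312% towards replicate 2) and for 0 RNAs towards replicate 1 (background 0.491%).

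**Figure D3:**
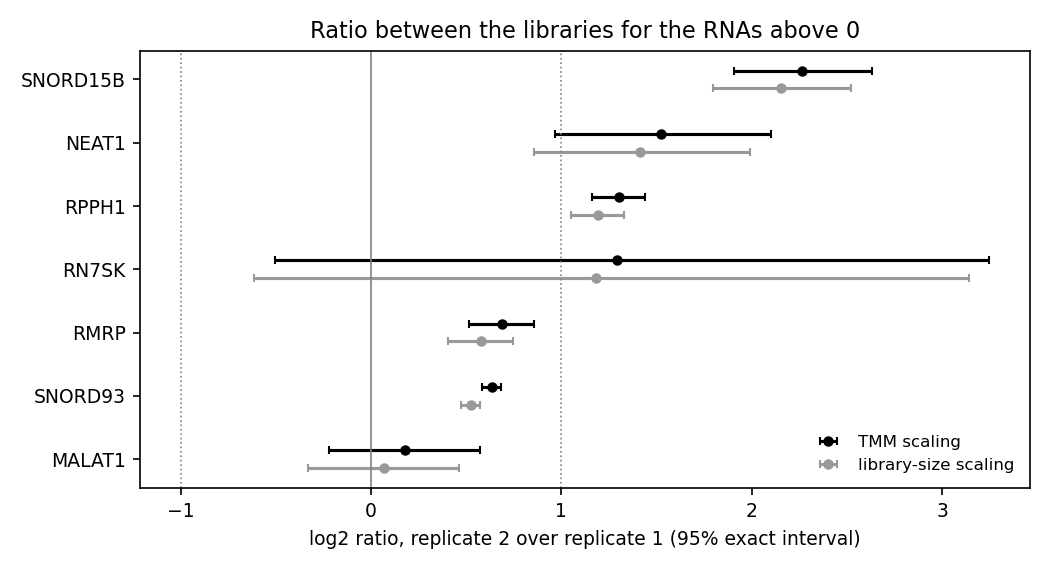
Log2 ratio of replicate 2 over replicate 1 with 95% exact intervals for the 7 RNAs above 0, after TMM scaling (black) and library-size scaling (grey); dotted lines mark 2-fold. SNORD15B and RPPH1 have intervals wholly beyond 2-fold under both scalings, and MALAT1 and RN7SK have intervals that include 0.

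Scaling drops out when related RNAs are set against each other within a library. This was done, as a description, for 3 pairs of related RNAs picked after the values were known. RPPH1 made up 65.6% of the counts of RPPH1 plus RMRP in replicate 2 (63.2 to 67.8) and 55.4% in replicate 1 (52.6 to 58.2). NEAT1 made up 45.7% of NEAT1 plus MALAT1 in replicate 2 (38.1 to 53.4) and 24.9% in replicate 1 (18.5 to 32.1). SNORD15B made up 3.99% of SNORD15B plus SNORD93 in replicate 2 (3.53 to 4.48) and 1.32% in replicate 1 (1.06 to 1.63). In each pair the counting intervals of the libraries did not overlap. With 1 library per batch, the spread that repeat libraries of the same cells would show in these balances is not known.

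**Figure D4:**
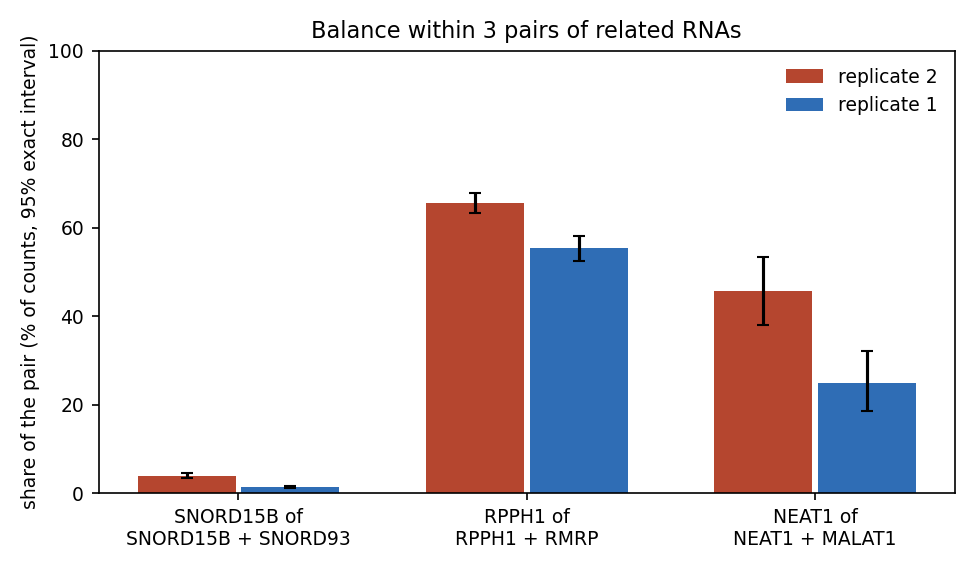
Share of the first RNA in the counts of each of 3 pairs (percent), in replicate 2 (red) and replicate 1 (blue), with 95% exact intervals. RPPH1 held 65.6% of its pair in replicate 2 and 55.4% in replicate 1, NEAT1 held 45.7% and 24.9% in the same order, and SNORD15B held 3.99% and 1.32%.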

How the data were processed

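The authors deposited, per the labels, unscaled counts of fragments of 27 to 29 nt per Ensembl ID, on genome build hg19 per the submitters' processing notes. Some values are not whole, so they were treated as the authors' estimated counts and rounded to whole numbers for scaling and ratios. The aligner, counting tool, annotation, strand setting and rule for fragments with several matches were not given in the sources used here. The members and gene lists were chosen with earlier results of these data known. All 10 members are named. The RefSeq table (GRCh38.p14) lists all 10 symbols but 0 of the 57820 Ensembl IDs, so the pairing of ID and symbol comes with the gene set, and the 13 lists of other genes could not be applied.

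CPM and shares used the sum of all IDs, 611266 counts in replicate 2 and 865838 in replicate 1, with 95% exact Clopper-Pearson intervals (scipy 1.17.1). Ratios used TMM factors (edgeR 4.0.16, R 4.3.3) over IDs with at least 20 summed counts. An ID was called where it had at least 100 summed counts and its 95% interval lay wholly beyond 2-fold. With 1 group no p-value was computed. The ratio, its interval and the 2-fold rule were tested on simulated counts with counting error only, scaled by library size. TMM scaling and spread between libraries beyond counting error were not part of that test. Alternatives were other scalings (DESeq2 1.42.0 among them), limits, minimums, rounding and each replicate left out.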

Additional observations from a re-analysis of the deposited data

How the results depend on the processing

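The set's mean share of 1.15% became 1.54% when the total excluded the 10 highest IDs (members kept) and 0.259% with SNORD93 left out of the sum, a setting added after seeing the data; both follow from the removal itself. Leaving out 1 replicate gave the other library's share, 0.903% to 1.40%. Over the whole table, 11 IDs were called towards replicate 2: library-size scaling made this 7, a 1.5-fold limit 49, 99% intervals 7 and a minimum of 20 summed counts 56. Towards replicate 1, 7 IDs were called: the same settings made this 11, 46, 4 and 29, and removal of IDs with non-whole values made it 4. DESeq2 scaling changed neither count. The members called higher in replicate 2 numbered 2 under each of these except the 1.5-fold limit, which gave 3, and none was called towards replicate 1. Over all alternatives run, the log2 ratio ranged from 2.15 to 2.33 for SNORD15B, 1.19 to 1.37 for RPPH1 and 0.07 to 0.25 for MALAT1. That of SNORD93 ranged from 0.52 to 0.70, beyond its counting interval of 0.58 to 0.68 at both ends, so the choice of scaling moved it more than counting error. Every nonzero member level rose when the total excluded the 2 or 10 highest IDs, which also follows from the removal. The rise exceeded 1 SD for SNORD93 (11289 and 11884 CPM) and MALAT1 (189 and 202 CPM), and for RMRP with 10 (1063 CPM). It stayed within 1 SD (n = 2) for RPPH1 (1644 and 1754 CPM), SNORD15B (344 and 367 CPM), NEAT1 (114 and 121 CPM) and RN7SK (12.0 and 12.8 CPM). SNORD93 is itself among the 10 highest IDs, and its counts were kept in the total for its own level only. The share of RN7SL1 in RN7SL1 plus RN7SL2 could not be computed, since both were at 0. No paired analysis was possible because the series holds 1 group. Depth limits RN7SK, with 13 summed counts.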
